A study of Mus musculus with 2 samples.

Results

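Transcripts of 8 serpin genes were followed in kidney stromal cells: Serpine2, Serpinf1, Serpinh1, Serpina1b, Serpina1d, Serpina3n, Serpinb1a and Serpinb6a. They were taken by symbol from the 53698 gene entries of the series, 68 of which carry a serpin symbol, and they had been chosen with their levels in these cells already known. The values below therefore describe the genes and test nothing. The cells came from kidneys of FVBN mice and were sorted as PDGFRa+b+, that is, positive for both receptors for platelet-derived growth factor, which fibroblasts, pericytes and their relatives carry. The first of the 2 libraries was made 10 days after the ureter on 1 side had been tied off (UUO, a surgical model of tubule injury and fibrosis), and the other after sham surgery. Both were made with 10x Chromium version 2 chemistry, which tags each captured 3′ transcript end with a unique molecular identifier (UMI). No genotype, age, sex or number of animals is given in the sources used here.

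Serpins are proteins of a shared fold. Most of them inhibit serine proteases by offering a reactive loop as bait, changing shape once the protease has cut it and locking the protease in a dead complex. Some family members no longer inhibit proteases and work as chaperones or signalling proteins. Secreted serpins limit clotting, plasminogen activation and complement outside the cell, while the clade B serpins stay inside the cell and guard it against its own or incoming granule proteases. In fibrosing organs the balance of plasminogen activators and their inhibitors sets part of the turnover of matrix.

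The members have different jobs. Serpine2 (protease nexin 1) inhibits thrombin, urokinase and plasmin at the cell surface. Serpina1b and Serpina1d are mouse copies of alpha-1-antitrypsin, made mainly by the liver, and Serpina3n is an acute phase inhibitor that acts on granzyme B and other proteases. Serpinb1a inhibits neutrophil elastase and related proteases, and Serpinb6a is an intracellular inhibitor of cathepsin G and trypsin-like proteases. Serpinf1 (PEDF) does not inhibit proteases and is known as a factor that restrains blood vessel growth. Serpinh1 (HSP47) is a chaperone of the endoplasmic reticulum that binds procollagen and is needed for its folding.

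In the GRCm38 assembly with GENCODE M21 gene models, Serpine2 lies on the minus strand of chromosome 1 (chr1:79794197-79861180), Serpinf1 on chromosome 11 (chr11:75409769-75422701) and Serpinh1 on chromosome 7 (chr7:99345376-99353239). Serpinb1a (chr13:32842092-32851185) and Serpinb6a (chr13:33917918-34002794) lie 1067 kb apart on chromosome 13. Serpina1b (chr12:103728156-103830373, minus strand) and Serpina1d (chr12:103763594-103773592, minus strand) share a locus on chromosome 12, and Serpina3n (chr12:104406729-104414329, plus strand) lies 633 kb from Serpina1d. The annotated span of Serpina1b covers all of Serpina1d on the same strand. Serpinb6a overlaps 1110046J04Rik, Nqo2 and Ripk1 on the opposite strand.

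Among the 8 members, the reads of Serpina1b and Serpina1d are the hardest to keep apart, and UMIs of both were assigned to some of the same cells. Their promoters are therefore shown for comparison. The 250 bases before each RefSeq start (GRCm38.p6) are given 5′ to 3′, with capitals at the CCAAT box on either strand. The Serpina1b stretch is chr12:103738190-103738439 and the Serpina1d stretch chr12:103773634-103773883, both on the minus strand.
Serpina1b: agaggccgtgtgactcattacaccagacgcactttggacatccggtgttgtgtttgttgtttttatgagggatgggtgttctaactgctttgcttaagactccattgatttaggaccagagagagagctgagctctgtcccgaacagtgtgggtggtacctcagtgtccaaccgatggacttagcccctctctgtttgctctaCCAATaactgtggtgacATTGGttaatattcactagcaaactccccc
Serpina1d: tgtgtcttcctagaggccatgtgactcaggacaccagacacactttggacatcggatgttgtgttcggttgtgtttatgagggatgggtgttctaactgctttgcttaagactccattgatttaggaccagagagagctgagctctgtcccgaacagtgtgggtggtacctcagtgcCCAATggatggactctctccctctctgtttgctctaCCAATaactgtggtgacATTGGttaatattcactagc
These stretches were 85.1% identical after alignment, against 48.7% between Serpina1b and Serpina3n and 41.0% between Serpina1b and Serpine2. CCAAT matches began at -47 and -30 from the start of Serpina1b and at -73, -37 and -20 from that of Serpina1d, counted on the gene's strand. CCAAT was also found before Serpinf1 and before 1 of the 2 listed starts of Serpinb6a, and 33.8% of 32851 mouse promoters of this length held it. TATAAA, the 3-unit heat shock element and the HNF1 motif were searched on both strands and were in none of the member promoters in the table, against 12.4%, 0.466% and 0.103% of all promoters. Of the 8 members 7 had an entry. The HNF1 search counted only exact matches to a strict form of the motif, so a site that departs from that form by a base was missed. Its result therefore does not show that the Serpina1b and Serpina1d promoters lack an HNF1 site. Looser forms of the motif were not tested. Over the last 400 bases of the transcripts, where 3′ reads fall, Serpina1b and Serpina1d were 95.8% identical. Serpina1c, not a member, was nearer still, at 96.5% to Serpina1b and 96.25% to Serpina1d. The nearest paralogs of Serpina3n and Serpinb6a in that stretch were Serpina3g at 71.2% and Serpinb6c at 77.9%.

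The library labelled UUO held 1291 barcodes and 6023072 UMIs, and the one labelled sham 10812 barcodes and 85359332 UMIs; 16 barcode sequences occurred in both. After filtering, 1052 and 10656 cells remained, with medians of 4154 and 7824 UMIs. Stromal cells, defined by marker UMIs that include no serpin, numbered 652 (62.0% of kept cells) in UUO and 8940 (83.9%) in sham, with medians of 5171 and 8308 UMIs. All 10 stromal markers were detected in both, at a summed level of 23722 CPM in UUO and 13401 CPM in sham, where CPM is the usual scaling of a gene's UMIs to all UMIs of the cells summed. Each library held stromal cells with Y-linked UMIs and no Xist UMI (185 in UUO, 1455 in sham) and cells with Xist and no Y-linked UMIs (171 in UUO, 5112 in sham), so each library held cells of both kinds. A further 73 UUO and 1190 sham stromal cells had UMIs of both and were left out of the split by sex-linked transcripts. Timp1 and Col1a1, transcripts known to go up in obstructed kidneys, were lower in stromal cells of the library labelled UUO (Timp1 70.4 against 686 CPM in sham, Col1a1 1655 against 2463 CPM), so libraries are called by their labels and no difference is given as an effect of obstruction. In stromal cells the 8 proximal tubule markers, all detected, summed to 876 CPM in UUO and 22.6 CPM in sham, and the 7 erythroid markers, 5 of them detected in UUO and 7 in sham, to 353 CPM in UUO and 18.4 CPM in sham. The 8 macrophage markers summed to 90.6 CPM in UUO, with Adgre1 at 0, and 229 CPM in sham, and the 8 endothelial markers to 374 and 328 CPM. Each group is a single library, so no replicate error can be had and nothing was tested between groups. Intervals are 95% intervals and cover counting error only.

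In stromal cells Serpinf1, Serpina1b and Serpina1d exceeded their sham level by 2-fold or more in UUO, and Serpine2 was 2-fold or more below it. Serpinh1, Serpina3n, Serpinb1a and Serpinb6a stayed within 2-fold. By the same rule (log2 ratio after adding 5 CPM), 12.2% of the 9630 genes that reached 10 CPM in a library were on the higher side in UUO and 4.99% on the lower side. Those shares are the background of the members' 3 of 8 and 1 of 8, and with so few members chosen on these values nothing is read from the difference. The members' median log2 ratio was -0.02, beside -0.03 over all genes. All serpins together came to 6927 CPM in UUO and 7722 CPM in sham stromal cells, and the 8 members made up 49.1% of that sum in UUO and 60.5% in sham.

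**Figure D1:**
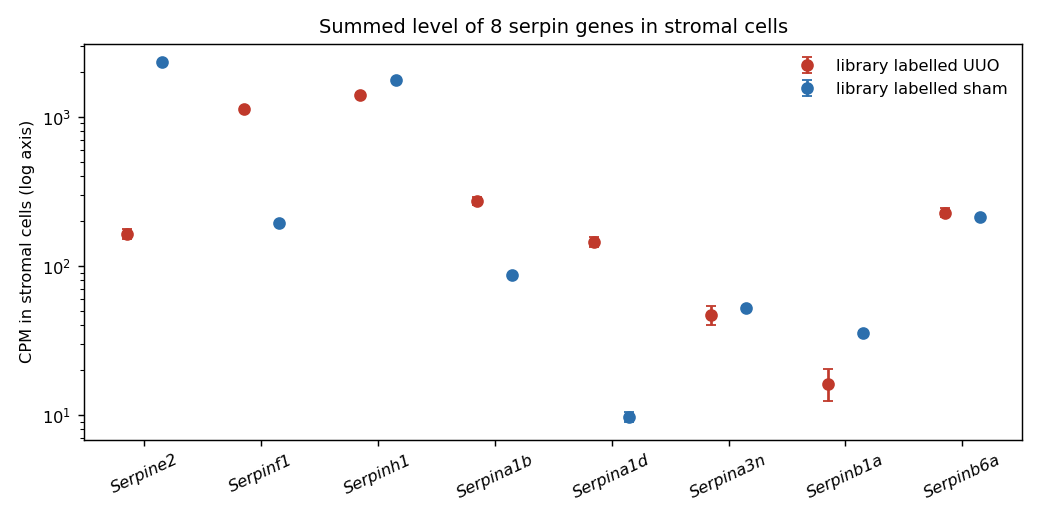
Summed level of each gene in stromal cells (CPM, log axis) in the library labelled UUO (red, left of each pair, 652 cells) and the library labelled sham (blue, right, 8940 cells). Points are sums over cells and bars 95% Poisson intervals, hidden where smaller than the point. Serpine2 is higher in sham, Serpinf1, Serpina1b and Serpina1d are higher in UUO, and the Serpina3n intervals overlap.

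Serpine2 showed the largest gap of the 8 genes on the low side. Its stromal level was 163 CPM (150 to 176; 649 UMIs) in UUO and 2316 CPM (2305 to 2327; 171975 UMIs) in sham, 14.3-fold lower in UUO (13.2 to 15.4). It was detected in 42.8% of UUO and 97.3% of sham stromal cells. With every cell thinned to 1000 UMIs the shares were 10.6% (8.20 to 13.3%) of 597 UUO cells and 75.03% (74.1 to 75.9%) of 8762 sham cells. The median stromal cell held 0 Serpine2 UMIs in UUO and 11 in sham. Serpine2 was also lower in UUO in endothelial cells, at 180 against 841 CPM, and in cells that met no class rule, at 377 against 3468 CPM. Of the latter, 135 of 208 in UUO and 531 of 787 in sham lay in clusters of both libraries with stromal markers. The part of RNA from stromal cells in the endothelial values was not tested. Among 22 pericyte, smooth muscle or renin cells in each library Serpine2 was at 828 CPM (675 to 1006) in UUO and 2144 CPM (1876 to 2440) in sham.

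Serpinf1 ran the other way. It was at 1127 CPM (1094 to 1160) in UUO and 195 CPM (192 to 198) in sham stromal cells, a ratio of 5.79 (5.59 to 5.98). Thinned to 1000 UMIs, 47.2% (43.2 to 51.3%) of UUO and 14.9% (14.2 to 15.7%) of sham stromal cells held a UMI. Serpinf1 UMIs were also found in UUO proximal tubule cells (185 CPM; 7.94% of 63 thinned cells) and endothelial cells (180 CPM; 14.5% of 55 thinned cells). Their median depths were 1847 and 4969 UMIs against 5171 in stromal cells.

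Serpinh1 differed little for its depth: 1407 CPM (1370 to 1444) in UUO and 1765 CPM (1756 to 1775) in sham stromal cells, a ratio of 0.797 (0.776 to 0.819). It was found in 90.6% of UUO and 97.6% of sham stromal cells, and the cells with the most UMIs for it (the top 10%) held 37.3% of its UMIs in UUO and 26.3% in sham. Both shares were the lowest of the 8 genes, a measure that also depends on the level.

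Serpina1b was at 273 CPM (257 to 290) in UUO and 86.2 CPM (84.1 to 88.3) in sham stromal cells, a ratio of 3.17 (2.97 to 3.38). Serpina1d was at 144 CPM (133 to 157) in UUO and 9.71 CPM (9.01 to 10.4) in sham, a ratio of 14.9 (13.3 to 16.6). A Serpina1b UMI was found in 44.9% of UUO and 20.1% of sham stromal cells, beside 25.3% of UUO proximal tubule cells (median 1847 UMIs) and 6.13% of sham endothelial cells (median 3810 UMIs). A Serpina1d UMI was found in 19.8% of UUO and 5.06% of sham stromal cells, beside 7.23% and 0.968% in the same other classes. At this depth such shares do not limit how many cells express a gene. Both ratios moved with the definition of a stromal cell. Where 75 in place of 50 marker UMIs per 10000 were asked for, the log2 ratio was 0.73 for Serpina1b and 1.88 for Serpina1d, against 1.61 and 3.35 here, and Serpina1b was then within 2-fold. Where classes came from joint clusters the values were 2.02 and 4.01.

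Serpina3n did not separate the libraries: 46.8 CPM (40.4 to 54.0) in UUO and 52.2 CPM (50.6 to 53.9) in sham stromal cells, with a ratio of 0.897 whose interval (0.770 to 1.04) holds 1. Thinned shares were 4.86% of UUO and 4.47% of sham cells. Serpinb6a was also near even, at 227 CPM (213 to 242) in UUO and 212 CPM (208 to 215) in sham, a ratio of 1.07 (1.00 to 1.15). Serpinb1a was scarce, with 64 UMIs in UUO and 2626 in sham stromal cells. It was at 16.0 CPM (12.3 to 20.5) in UUO and 35.4 CPM (34.0 to 36.7) in sham, 2.21-fold lower in UUO (1.72 to 2.87). With 5 CPM added its log2 ratio of -0.94 fell just inside the 2-fold limit, and with 1 CPM added it was -1.10, outside it. The nearest value on the outer side of the limit was that of Serpina1b.

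The genes also differed in which cell class held them, compared here and below among classes of at least 50 cells. Serpinf1, Serpinh1 and Serpina3n were highest in stromal cells of both libraries, with intervals apart from the next class. In UUO Serpinf1 stood 6.10-fold (4.84 to 7.80) above proximal tubule cells, and in sham 4.36-fold (3.41 to 5.67) above macrophages. Serpinh1 stood 2.74-fold (2.34 to 3.23) above UUO and 1.91-fold (1.80 to 2.02) above sham endothelial cells. Serpina3n was at 46.8 CPM in stromal and, from a single UMI, 3.21 CPM in endothelial cells of UUO, and at 52.2 CPM in stromal and 33.6 CPM in loop, distal tubule or collecting duct cells of sham.

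For Serpine2 the order depended on the library. Among classes of at least 50 cells in UUO, stromal (163 CPM) and endothelial cells (180 CPM, 136 to 233) did not differ beyond their intervals. Proximal tubule cells were at 32.9 CPM (17.5 to 56.2). Among those of sham, stromal cells were at 2316, endothelial at 841, macrophage at 460 and loop, distal tubule or collecting duct cells at 260 CPM. No 2 neighbours overlapped. The 22 pericyte, smooth muscle or renin cells lay above all of these UUO classes, at 828 CPM (675 to 1006). In sham they overlapped stromal cells, at 2144 CPM (1876 to 2440). Unclassed cells lay above stromal cells in both libraries, at 377 CPM in UUO and 3468 CPM in sham. A Serpine2 UMI was nonetheless found in 86.2% of the 145 loop or duct cells and 75.7% of the 259 macrophages of sham. Thinned to 1000 UMIs these shares were 23.1% and 36.6%, against 75.03% of stromal cells.

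Serpina1b and Serpina1d in UUO were as high in endothelial as in stromal cells within their intervals, at 240 CPM (189 to 302) and 124 CPM (89.0 to 171), and lower in proximal tubule cells, at 93.6 CPM (65.9 to 129) and 32.9 CPM (17.5 to 56.2). In sham they were highest in stromal cells among classes of at least 50 cells, 3.32-fold (2.36 to 4.83) above endothelial cells for Serpina1b. Among these classes Serpinb1a was the 1 member that peaked outside the stroma in sham. It was at 82.0 CPM (68.6 to 97.3) in loop, distal tubule or collecting duct cells, 2.32-fold (1.93 to 2.76) above stromal cells. In UUO its stromal and endothelial levels were 16.0 and 16.1 CPM. Serpinb6a was broad: stromal and endothelial cells were at 227 and 173 CPM in UUO and at 212 and 186 CPM in sham, and both pairs of intervals overlapped.

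**Figure D2:**
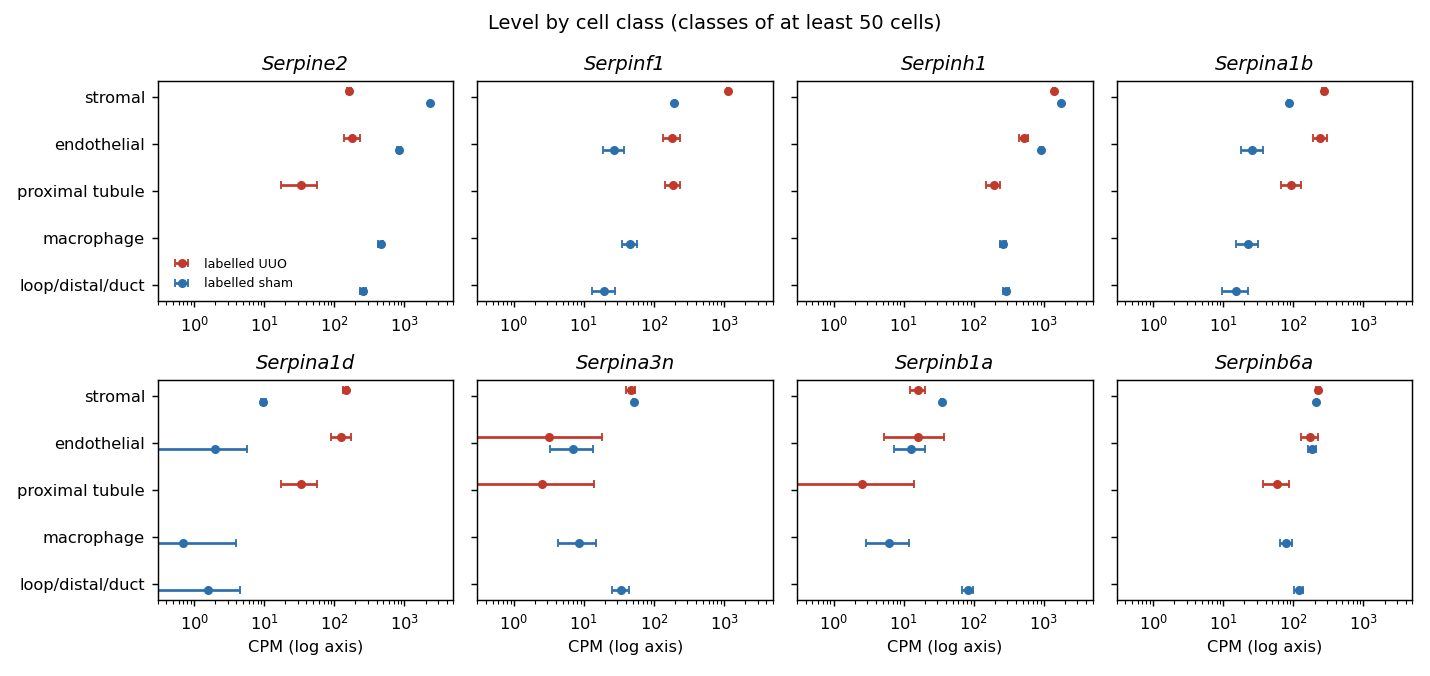
Level of each gene (CPM, log axis) by cell class in the library labelled UUO (red, upper) and the library labelled sham (blue, lower), for classes of at least 50 cells; bars are 95% Poisson intervals and run off the left edge where the lower bound is under 0.3 CPM. Serpinf1 and Serpinh1 peak in stromal cells of both libraries, and Serpinb1a peaks in loop, distal tubule or collecting duct cells of sham.

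Within the stroma, the cluster with the most Serpina1b was not the one with the most Serpinf1 in either library. Stromal cells of each library were clustered on their own, with serpin genes left out. In UUO, cluster 1 (230 cells, led by Adap2os, Cpm and Adap2) held Serpina1b at 747 CPM (698 to 798), Serpina1d at 456 CPM (418 to 496) and Serpinf1 at 173 CPM (150 to 199). Cluster 2 (193 cells, led by Cxcl13, Dlk1, Apod, Ptx3 and C3) held Serpina1b at 50.7 CPM, Serpina1d at 2.78 CPM and Serpinf1 at 1822 CPM (1757 to 1889). The intervals of these 2 clusters were far apart for all 3 genes. The other UUO clusters did not divide in this way. Cluster 5 (80 cells, shallow, median 1228 UMIs) was second highest for both, with Serpinf1 at 1364 CPM and Serpina1b at 261 CPM, and cluster 3 (102 cells, led by Mfap4, Fmod and Fbln7) held Serpinf1 at 1336 CPM and Serpina1b at 101 CPM.

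Sham cluster 8 (218 cells, 2.44% of stromal cells, led by Meg3, Sfrp4, C3 and Ptx3) held Serpinf1 at 1059 CPM (1015 to 1104), above 397 CPM in the next cluster, and Serpina1b at 22.0 CPM. Sham cluster 4 (2482 cells, led by Ptn, Clca3a1 and Hpgd) held Serpina1b at 223 CPM (217 to 230), Serpina1d at 25.8 CPM (23.7 to 28.0) and Serpinf1 at 70.0 CPM, its lowest value. C3 and Ptx3 were leading genes of the cluster with the most Serpinf1 in both libraries, but not of UUO clusters 3 and 5, which were also high. Serpina1b was also at 275 CPM (242 to 311) in sham cluster 7, whose cells are shallow (median 1560 UMIs).

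Serpinh1 was highest in the clusters with the most Serpinf1, at 1723 CPM in UUO cluster 2 and 2538 CPM in sham cluster 8. Serpina3n was likewise highest there, at 72.3 CPM (59.8 to 86.7) in UUO cluster 2, overlapping cluster 3 at 59.1 CPM, and at 287 CPM (264 to 310) in sham cluster 8, where the next cluster reached 55.6 CPM. Serpine2 had its lowest sham value, 468 CPM (439 to 498), in that same cluster 8, against 2989 CPM in sham cluster 2 (1548 cells, led by Cxcl14, Srgn and Igfbp5), which overlapped cluster 6 at 2954 CPM. It had its highest UUO value, 284 CPM (254 to 316), in cluster 1. Serpinb1a was highest in sham cluster 2 at 56.3 CPM overlapping cluster 9, and lowest in sham cluster 3 at 10.7 CPM. Among the 9 sham clusters of at least 50 cells, the highest value of Serpinb6a was 1.65-fold its lowest and that of Serpinh1 1.60-fold. Sham cluster 10, with 20 cells, lay below these for both, at 141 CPM and 979 CPM.

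Since the cluster makeup of the libraries differs, the C3- and Ptx3-led clusters can be set side by side. Serpinf1 was at 1822 CPM in UUO cluster 2 and 1059 CPM in sham cluster 8, Serpina3n at 72.3 and 287 CPM, and Serpinh1 at 1723 and 2538 CPM. Serpine2 was at 125 CPM in UUO cluster 2 and 468 CPM in sham cluster 8. These clusters made up 29.6% of UUO and 2.44% of sham stromal cells, so the share of such cells and the level per cell both differ between the libraries. They were built separately and are not shown to be the same cells.

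**Figure D3:**
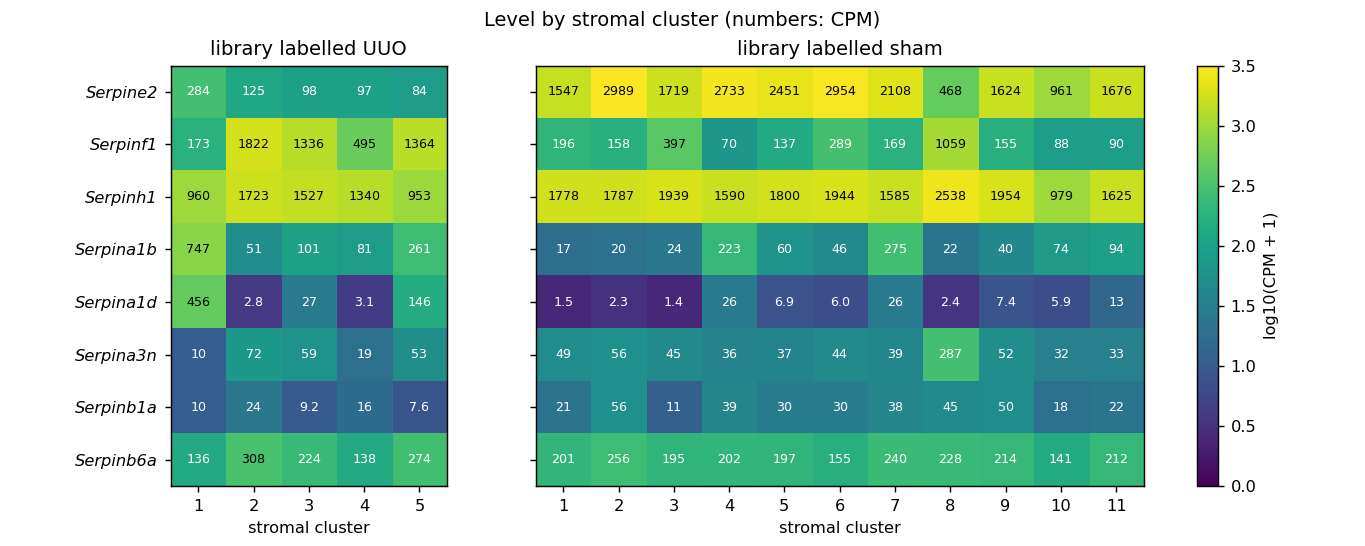
Level of each gene by stromal cluster, in the library labelled UUO (left, 5 clusters) and the library labelled sham (right, 11 clusters); colour is log10(CPM + 1) and the number in each cell is CPM. Clusters carry no match between libraries. Serpinf1 and Serpina3n share their highest cluster in each library, UUO 2 and sham 8, where Serpina1b is low; Serpina1b is highest in UUO 1 and, among deeper clusters, sham 4.

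Genes were also counted together cell by cell. Among stromal cells thinned to 1000 UMIs, Serpina1b and Serpina1d were found together in 38 of 597 UUO cells, where independent detection would give 9.05, and in 50 of 8762 sham cells, against 5.89. For this pair the values do not show that both were expressed in a cell, since a UMI divided between the near-identical copies can count in both. The part of divided UMIs in these counts was not tested. Serpinf1 and Serpina1b were found together in 19 UUO cells, against 42.5, and in 42 sham cells, against 82.7. Serpinf1 and Serpina3n were together in 21 UUO cells, against 13.7, and in 81 sham cells, against 58.4. Serpine2 and Serpinh1 were found together in 5207 sham cells, close to the 5194 of independent detection.

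Since tubule markers were higher in UUO stromal cells, the Serpina1 UMIs are also given per tubule UMI. Proximal tubule cells are the main source of Kap and Miox in kidney, and stromal cells of UUO held 2530 UMIs of the 2 genes. Serpina1b had 0.431 UMIs per Kap or Miox UMI (0.401 to 0.463) in UUO stromal cells and 0.00465 (0.00327 to 0.00641) in UUO proximal tubule cells. In sham the values were 7.61 (7.08 to 8.19) in stromal cells and 0.00184 (0.000222 to 0.00665) in the 16 proximal tubule cells. The tubule gene Slc34a1, a phosphate transporter, was at 0.132 and 0.194 per Kap or Miox UMI in UUO stromal and proximal tubule cells, and at 0.254 and 0.260 in those of sham. Kap, Miox and Slc34a1 are among the markers that chose the proximal tubule cells. Low values per Kap or Miox UMI in that class were therefore partly set by the choice of cells. The part of tubule RNA in the Serpina1 levels was not tested.

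**Figure D4:**
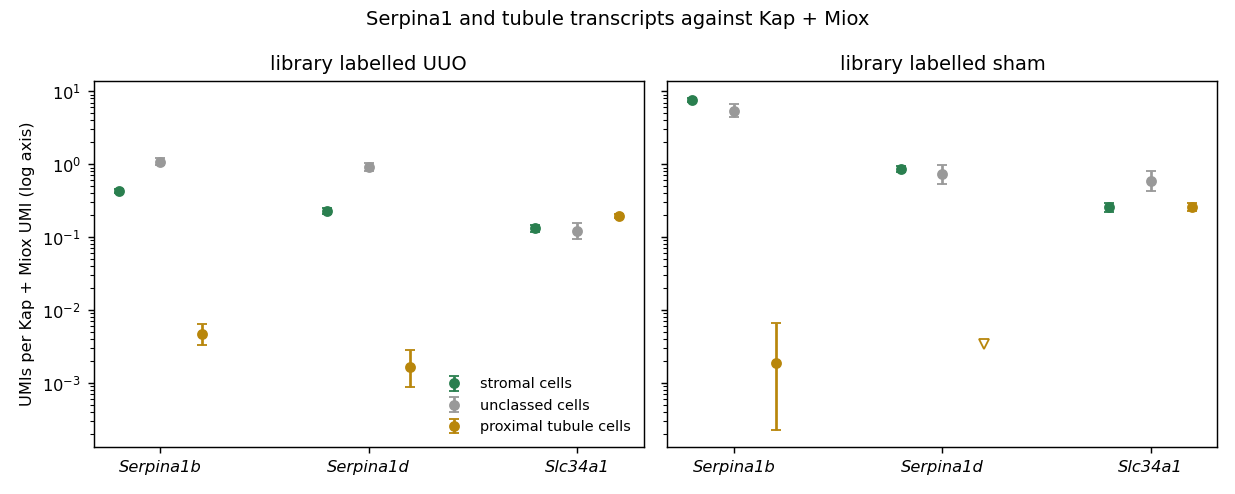
UMIs of Serpina1b, Serpina1d and the tubule gene Slc34a1 per UMI of Kap plus Miox (log axis) in stromal (green), unclassed (grey) and proximal tubule cells (ochre) of the library labelled UUO (left) and the library labelled sham (right). Bars are 95% exact conditional intervals, and the open triangle is the upper bound of a count of 0. Slc34a1 is at 0.132 in stromal and 0.194 in proximal tubule cells of UUO, and at 0.254 and 0.260 in those of sham, with sham unclassed cells higher at 0.596. Serpina1b and Serpina1d are lowest in proximal tubule cells, a class chosen by markers that include Kap, Miox and Slc34a1.

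Many cells with these transcripts met no class rule. Unclassed cells numbered 208 in UUO (19.8% of kept cells) and 787 in sham (7.39%), and 135 of the UUO and 531 of the sham ones lay in joint clusters with stromal markers. In them Serpina1b was at 854 CPM (788 to 924) in UUO and 122 CPM (113 to 132) in sham, and Serpina1d at 717 CPM (657 to 782) in UUO and 16.3 CPM (13.1 to 20.4) in sham. With unclassed cells added to the stroma the log2 ratios were 1.97 for Serpina1b and 3.97 for Serpina1d.

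The mix of Serpina1 copies differed between the libraries, and also between the stromal clusters of UUO. UUO cluster 1 held 532 Serpina1d and 872 Serpina1b UMIs, cluster 5 held 19.2 and 34.2, and cluster 3 held 20.2 and 76.5. UUO cluster 2 held 4.5 and 82, and cluster 4 held 1 and 26. Among UMIs assigned to Serpina1a to Serpina1e in stromal cells, Serpina1b took 63.2% in UUO and 83.8% in sham, Serpina1d 33.4% in UUO and 9.45% in sham, and Serpina1a 2.47% in UUO and 5.97% in sham. This put 52.9 Serpina1d UMIs beside each 100 of Serpina1b in UUO and 11.3 in sham. Endothelial cells of UUO had nearly the mix of its stromal cells, with 51.8. In sham the endothelial number was 7.58, but it rests on 2.5 Serpina1d and 33 Serpina1b UMIs, too few to compare with stromal cells. The endothelial cells' own transcripts and free RNA cannot be told apart for these genes. In unclassed UUO cells the number was 84.0, and Serpina1a (248 CPM) and Serpina1c (130 CPM) were present as well.

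The copies are near-identical, and the quantifier divides a UMI that matches several genes, which leaves non-whole values. At a tolerance of 1e-06, 95.2% of nonzero Serpina1b values were whole in UUO and 96.8% in sham, and 91.5% and 84.8% of Serpina1d values. For Serpina1a it was 60.2% in UUO and 60.4% in sham, and for Serpina1c 50% and 24.1%, beside 91.2% and 92.3% over all genes. Values that were not whole held 18.0% of Serpina1d UMIs in UUO and 17.3% in sham. On whole values alone the log2 ratios were 1.79 for Serpina1b and 3.61 for Serpina1d. All values of Serpine2, Serpinf1, Serpinh1, Serpinb1a and Serpinb6a were whole, and 98.4% of UUO and 99.5% of sham values of Serpina3n.

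Stromal cells were also split by sex-linked transcripts. Serpina1b was at 274 CPM (247 to 302) in stromal cells with Y-linked UMIs only and 178 CPM (154 to 205) in those with Xist UMIs only in UUO, and at 119 CPM (113 to 125) and 61.7 CPM (59.3 to 64.1) in sham. Serpina1d was at 138 CPM in Y-linked and 82.1 CPM in Xist cells in UUO, and at 13.2 and 6.38 CPM in sham. Both genes were thus higher in the Y-linked cells of both libraries, with intervals apart. Serpinh1 was also higher in Y-linked cells, at 1452 against 1324 CPM in UUO, with overlapping intervals, and 1817 against 1754 CPM in sham. The other 5 genes had opposite signs in the libraries: Serpine2, for example, was higher in Y-linked cells of UUO (230 against 152 CPM in Xist cells) and lower in those of sham (2227 against 2422 CPM). Serpinb6a was at 278 CPM in Y-linked and 178 CPM in Xist cells in UUO, and at 200 and 219 CPM in sham. For Serpinf1, Serpinb1a and Serpina3n the UUO intervals overlapped, so their sign there lies within counting error. The number of mice behind each set of cells is not known.

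Among the 60 other serpin entries, 34 were detected in stromal cells and 8 reached 10 CPM, of which 1 was on the higher and 3 were on the lower side of the 2-fold limit in UUO, beside 12.2% higher and 4.99% lower over all genes. Serping1, the C1 inhibitor that limits complement activation, was at 3296 CPM in UUO and 2520 CPM in sham (ratio 1.31, 1.28 to 1.33). Of the close relatives of members, Serpina3g was at 11.8 CPM in UUO and 92.3 CPM in sham, Serpinb6b at 17.5 and 87.8 CPM, and Serpina3c at 17.3 and 0.242 CPM. Some paralogs thus did not share the side of their member: Serpina3n and Serpinb6a were near even while Serpina3g and Serpinb6b were 7.84-fold and 5.01-fold lower in UUO. Others did: Serpina1a (ratio 1.75, 1.25 to 2.40), Serpina1c (3.65, 1.65 to 7.26) and Serpina1e (22.3, 5.67 to 92.4) were higher in UUO, like Serpina1b and Serpina1d. Serpina1c and Serpina1e rest on 10 and 6 UUO UMIs, and divided UMIs can count in several copies. Serpinb6c was even like Serpinb6a (1.00, 0.395 to 2.12). Serpina1a was at 10.8 CPM in UUO and 6.14 CPM in sham, Serpinb9 at 29.3 and 54.1 CPM, and Serpini1 at 12.0 and 16.5 CPM. Serpina1c, Serpina1e, Serpina1f, Serpina3a, Serpina3f, Serpina3h, Serpina3i, Serpina3m, Serpina3e-ps, Serpinb1b, Serpinb6c and Serpinb6e were detected below 10 CPM.

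**Figure D5:**
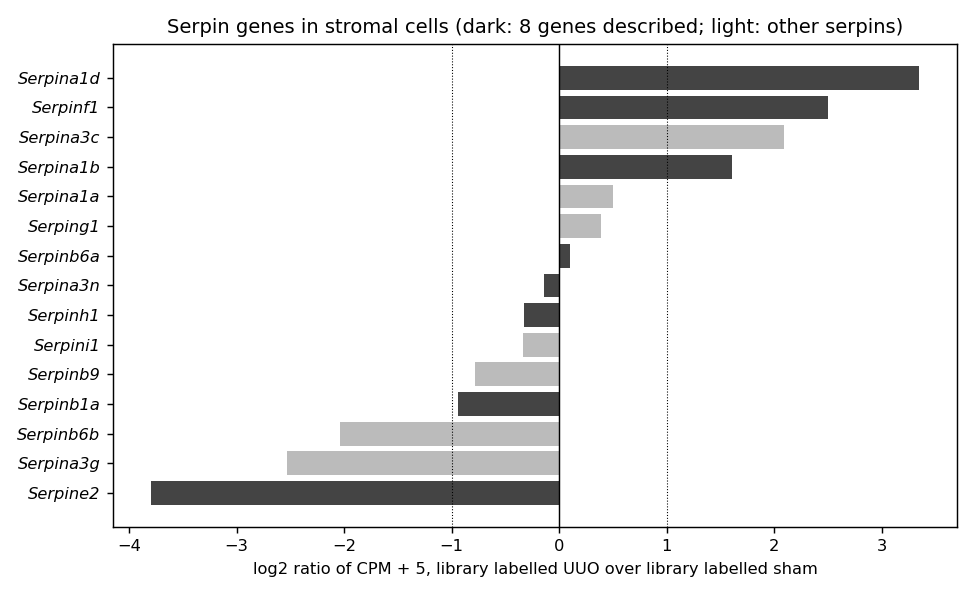
log2 ratio of CPM + 5 in stromal cells, library labelled UUO over library labelled sham, for 15 serpin genes that reached 10 CPM in a library; dark bars are the 8 genes described, light bars other serpins, and dotted lines mark 2-fold. Serpina1d is the highest at 3.35 and Serpine2 the lowest at -3.79.

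Proteases and receptors that serpins act on were looked at next. Of 20 listed genes 12 reached 10 CPM in stromal cells, 2 were at least 2-fold higher in UUO, none lower and 10 within 2-fold, close to the 12.2% higher and 4.99% lower over all genes. Their median log2 ratio was -0.05. The higher ones were Klk1, a kallikrein made by distal tubule cells (71.6 CPM in UUO, 2.94 in sham), and Plau, the urokinase that Serpine2 inhibits (54.6 CPM in UUO, 5.86 in sham). Plat, the tissue plasminogen activator, was at 225 CPM in UUO and 368 CPM in sham, the thrombin receptor F2r at 273 and 402 CPM, and Lrp1, which clears serpin and protease complexes, at 263 and 296 CPM. The target proteases of Serpinb1a were scarce: Prtn3 was at 5.51 CPM in UUO and 15.2 CPM in sham, Elane was under 1 CPM and Ctsg had no UMI in either. Plaur, the urokinase receptor, was at 5.76 and 12.95 CPM, Prss8 at 4.51 and 0.673 CPM, Ctsl at 1503 and 1728 CPM, Prss23 at 370 and 242 CPM and Htra1 at 302 and 289 CPM. The markers of loop, distal tubule and collecting duct, where Klk1 is made, summed to 51.3 CPM in UUO and 55.7 CPM in sham stromal cells, and their part in the Klk1 level was not tested.

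Of 13 other inhibitors of plasminogen and matrix proteases 7 reached 10 CPM, and 1 was at least 2-fold higher and 2 lower in UUO, beside 12.2% higher and 4.99% lower over all genes. Their median log2 ratio was 0.39. Cst3 (cystatin C) was at 5679 CPM in UUO and 1396 CPM in sham, while Timp1, at 70.4 CPM in UUO and 686 CPM in sham, was among the lower ones. Serpind1 (heparin cofactor II), under 10 CPM, had 1 UMI in UUO and 665 UMIs in sham. Timp2 was at 952 CPM in UUO and 589 CPM in sham, and Timp3 at 712 and 436 CPM.

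Serpinh1's clients and fellow folding factors were listed together. Of 16 collagen folding genes, all at 10 CPM or more, none was at least 2-fold higher in UUO, 2 were lower and 14 within 2-fold, beside 4.99% lower over all genes. Their median log2 ratio was -0.64, beside -0.33 for Serpinh1 itself and -0.03 over all genes, and the list was not tested. Sparc, a collagen-binding secreted protein, was at 2875 CPM in UUO and 6140 CPM in sham, and Col5a2 at 74.4 and 361 CPM. Col3a1 was at 2026 and 3743 CPM, Col1a2 at 1534 and 2633 CPM and Col1a1 at 1655 and 2463 CPM, while Col6a1 was at 433 and 251 CPM. Col1a1, Col1a2 and Col3a1 are also among the markers that chose the stromal cells. Fkbp10, a folding factor that works with Serpinh1, was at 76.9 CPM in UUO and 157 CPM in sham, just inside the limit with 5 CPM added.

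Serpinh1 belongs by name to the heat shock genes. Of 9 such genes, all at 10 CPM or more, 3 were at least 2-fold higher in UUO and 6 within 2-fold, beside 12.2% higher over all genes. Their median log2 ratio was 0.69, beside -0.03 over all genes, and the list was not tested. Dnajb1 was at 469 CPM in UUO and 148 CPM in sham, Hsph1 at 31.8 and 12.5 CPM, Hspa5 at 979 and 478 CPM and Hspa1b at 40.8 and 21.3 CPM. Hspa8 was at 1573 and 1041 CPM, Hspa1a at 721 and 505 CPM and Hsp90b1 at 560 and 399 CPM.

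Of 8 acute phase genes 6 reached 10 CPM, with 2 at least 2-fold higher, 1 lower and 3 within 2-fold in UUO, beside 12.2% higher and 4.99% lower over all genes. Their median log2 ratio was 0.59. C3, the central complement protein, was at 636 CPM in UUO and 36.6 CPM in sham, and Steap4, a metal reductase, at 156 and 4.87 CPM. Lcn2 was at 4.26 CPM in UUO and 22.2 CPM in sham. Cp was at 378 and 239 CPM, Hp at 36.8 and 35.6 CPM and Saa3 at 23.5 and 14.8 CPM, so Serpina3n at 46.8 and 52.2 CPM sat with the even members of the list. Of the 5 genes that Serpinf1 protein binds or counters, 4 reached 10 CPM and 2 were at least 2-fold higher in UUO, beside 12.2% over all genes. These were Vegfa at 32.3 CPM in UUO and 12.5 CPM in sham, and Lrp6 at 75.4 and 34.1 CPM. Kdr was at 8.76 and 1.44 CPM, Rpsa at 812 and 875 CPM and Pnpla2, a lipase that binds PEDF, at 27.5 and 29.6 CPM.

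Likeness of pattern was taken as the Pearson correlation of log2(CPM + 5) over 7 summed profiles of a class in a library, among 5632 genes; with so few profiles, which share libraries, it is a description. Serpinf1 was most like Plac9a (r = 0.992), Ogn (0.988) and Plac9b (0.988), and Serpinh1 most like Sar1a (0.985), Fbln2 (0.984) and Tgfb1i1 (0.984). Serpine2 was most like C1qtnf6 (0.979), Mmp11 (0.978) and Eid1 (0.975), and Serpina3n most like Sfrp1 (0.988), Mt2 (0.969) and Gpm6b (0.965). Serpina1b was most like Mia3 (0.991), Gm26518 and Tmod1 (0.982), and Serpina1d most like Caprin2 (0.998), D10Wsu102e (0.991) and Olfr912 (0.983). Serpinb6a was most like Armcx2 (0.987), Nedd4 (0.983) and Smim11 (0.982), and Serpinb1a most like Sec63 (0.978), 1300002E11Rik (0.961) and Hcfc1r1 (0.944). No gene was among the 3 most alike of more than 1 member.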

How the data were processed

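The authors deposited 1 matrix of cells by gene entries per library, whose values are expected counts of UMIs, not normalised, made with alevin of Salmon 0.13.1 on mm10, per the submitters' processing notes. The rule that picked these barcodes is not known here. A GENCODE M21 identifier and version matched 52806 gene entries. Cells with at least 500 UMIs, 300 genes and at most 20% mitochondrial UMIs were kept. A cell joined a class with at least 3 of its markers detected and at least 50 marker UMIs per 10000 UMIs; cells meeting 2 classes or none stayed apart (14 and 208 in UUO, 152 and 787 in sham). Within 40 to 60 marker UMIs per 10000 lay 137 UUO and 884 sham cells. This rule was set after marker levels were seen, and earlier results on the members' levels in these cells were already known. Doublets were scored with Scrublet (scanpy 1.11.5) and left out only as an alternative. Leiden clusters (igraph version, run through scanpy 1.11.5) were built without serpins. The stromal clusters of each library used resolution 0.5, and the joint clusters of both libraries a higher one.

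Counts were summed over cells, rounded and scaled to CPM of the summed total. Ratios carry exact conditional binomial, levels exact Poisson and shares Clopper-Pearson intervals at 95% (scipy 1.17.1). Called means at least 2-fold after adding 5 CPM, which understates the ratio of low genes. Thinning drew 1000 UMIs per cell and left out 55 UUO and 178 sham stromal cells that were shallower. The ratio calculation was tested on simulated counts. The members, markers and lists were chosen with earlier results of these data known. The named genes were the members, their detected paralogs, the 6 most abundant other serpins, the 4 most abundant and the 4 most different genes of each list, and the 3 genes most alike each member; Serpini1, Elane, Ctsg, Plaur, Htra1, Lrp1, Col6a1 and Saa3 were added after their values were seen. Sequences come from RefSeq tables (GRCm38.p6). Some genes of the lists are not reported here by name.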

Additional observations from a re-analysis of the deposited data

How the results depend on the processing

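The count of 3 genes at least 2-fold higher in UUO was 3 under 13 of 14 alternatives, and 2 where 75 marker UMIs per 10000 were asked for. The count of 1 gene at least 2-fold lower became 2, by Serpinb1a, with a pseudocount of 1 CPM, with classes from joint clusters, with the mean of per-cell values, with cells thinned to 1000 UMIs and in cells with Xist UMIs only; no cause was tested for the last 4. Among classes of at least 50 cells, stromal cells held the highest level of 6 genes in UUO (6 to 7 over 5 alternatives) and 7 in sham (6 to 7). The intervals overlapped those of endothelial cells for Serpina1b, Serpina1d and Serpinb6a in UUO and for Serpinb6a in sham. The share of all genes that peak in stromal cells was not computed, so nothing is read from these counts. Serpine2, Serpinf1, Serpinh1, Serpinb1a, Serpina1b and Serpina1d kept their sign in all 14 alternatives. Over these the log2 ratio ran between -4.13 and -3.25 for Serpine2, 2.22 and 2.66 for Serpinf1, -0.44 and -0.25 for Serpinh1, -1.21 and -0.68 for Serpinb1a, 0.73 and 2.02 for Serpina1b and 1.88 and 4.01 for Serpina1d. Serpina3n (-0.50 to 0.10) and Serpinb6a (-0.29 to 0.46) changed sign: Serpina3n was above 0 in cells with Y-linked UMIs only and in thinned cells, and Serpinb6a below 0 in cells with Xist UMIs only. The 4 alternatives on marker share, unclassed cells and clusters were chosen after seeing the data. The median ratio over genes was -0.03 on the log2 scale, which median-ratio scaling sets to 0. No paired analysis was possible because each group has 1 library. The smaller UUO library limits Serpinb1a (64 UMIs) and all classes but stromal cells.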
